A study of Mus musculus with 14 samples.

Results

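The region studied was a stretch of 60 kb of mouse chromosome 19, chr19:37740001-37800000 in build mm9, which carries Cyp26c1 and Cyp26a1. It was chosen for these 2 genes, known targets of retinoic acid, by a rule that uses no measured value, with results of these data already known. Its members were the 300 possible bins of 200 bp and all deposited peaks that overlap it. Of these bins, 250 were listed in at least 1 of 8 libraries, out of 7282466 bins listed over the genome. Peaks in the region numbered 10 of 145840 for H3K4me1 and 1 of 100469 for H3K27ac in ESCs, and 13 of 158989 and 9 of 102600 after retinoic acid.

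The measurements were ChIP-BS-seq, in which chromatin carrying a histone mark is immunoprecipitated and its DNA treated with bisulfite, so that the methylation (5mC) of the DNA under that mark is read. Every sample came from R1, an ESC line from a male mouse. ESCs had been kept for 2 days without 2i (the inhibitor pair that holds ESCs in the naive state). RA cells had been grown for 4 days in serum without LIF, with retinoic acid at 1 µM. XEN cells (extraembryonic endoderm) had been derived from it directly in 9 days with Activin A at 10 ng/mL and retinoic acid at 0.1 µM, so every differentiated group had received retinoic acid, at different doses. H3K4me1 and H3K27ac were each represented by 1 library in ESCs, 1 in RA cells and 2 in XEN cells. The labelled cell types were not checked against marker genes here.

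CYP26 enzymes are cytochromes P450 that oxidise retinoic acid and so clear it from the cell. Cyp26a1 encodes the member best known for being switched on by its own substrate, through retinoic acid receptors bound to response elements near its promoter, and it limits retinoic acid signalling in the early embryo. Cyp26c1 is its neighbour and encodes a related enzyme with a more restricted expression, in hindbrain and head mesenchyme among others. H3K4me1 marks primed and active enhancers, H3K27ac marks active enhancers and promoters, and DNA at active regulatory elements is usually poor in 5mC.

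In RefSeq's annotation of GRCm38.p6 both genes lie on the plus strand, Cyp26c1 at the lower coordinates, with start sites 12128 bp apart. That is another build than the files', so no bin below was assigned to a gene, and low coordinates of the region are only said to be on the Cyp26c1 side. The 250 bases before each start site are shown because the 2 promoters differ in their CpGs and in their match to a retinoic acid receptor repeat, with any match in capitals. They are chr19:37685430-37685679 and chr19:37697558-37697807 of GRCm38.p6, plus strand.
Cyp26c1: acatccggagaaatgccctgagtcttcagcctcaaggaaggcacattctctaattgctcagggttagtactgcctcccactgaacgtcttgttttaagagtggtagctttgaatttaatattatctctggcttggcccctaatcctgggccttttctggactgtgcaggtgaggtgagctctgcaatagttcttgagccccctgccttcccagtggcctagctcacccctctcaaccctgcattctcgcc
Cyp26a1: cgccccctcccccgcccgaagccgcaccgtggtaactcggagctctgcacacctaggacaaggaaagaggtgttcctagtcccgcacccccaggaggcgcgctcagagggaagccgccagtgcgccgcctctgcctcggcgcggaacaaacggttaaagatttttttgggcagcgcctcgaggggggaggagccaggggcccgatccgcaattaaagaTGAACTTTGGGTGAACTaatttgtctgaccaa

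The capitals mark 2 copies of AGTTCA on the minus strand, 5 bases apart, between 32 and 16 bases before the Cyp26a1 start site. The search took any 2 receptor units in the same orientation with 5 bases between them, on both strands. The unit AGGTCA is the common consensus, the unit AGTTCA was accepted as well, GGGTCA was treated alike, and so was the last form, GGTTCA. Such a match stood in 32 of 32851 RefSeq promoters (0.0974%) and not in the Cyp26c1 promoter, over windows of 300 bases that reach 50 bases past the start site. A match is a description of letters and not a bound site. The Cyp26a1 window held 26 CpGs, which 16.9% of promoters reached, and the Cyp26c1 window held 5.

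Counts below are CpGs read as methylated or unmethylated within a bin. Occupancy is given as CpG counts per 10M (M, mega) counts of the library, which compares the same bin between libraries but not bins of different CpG content. Libraries held between 12147115 and 58803653 CpG counts. Intervals are exact 95% intervals and reflect counting error alone, as several CpGs can sit on 1 read and reads can be PCR copies. With 1 library per mark in ESCs and RA cells, comparisons between them compare those libraries and have no replicate check, and whether repeats were pooled in them is not given in the sources used here. In bulk samples a mark on more cells and more of the mark per cell cannot be told apart. In XEN cells, labels and file names disagree on which antibody was used for which library, and the labels were followed. Over 84226 bins, counts of the XEN libraries labelled H3K27ac had a Spearman correlation of 0.593 and 0.650 with RA H3K4me1 and of 0.0399 and 0.0327 with RA H3K27ac. The XEN libraries labelled H3K4me1 had 0.163 and 0.156 with RA H3K4me1 and 0.502 and 0.505 with RA H3K27ac. These bins share their CpG content across libraries, so the values are a description. The data thus go against the XEN labels, and XEN values are given for the library labelled with a mark.

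H3K27ac over the region was 8.41-fold higher in RA cells than in ESCs (interval 7.87 to 9.00), with 961 CpG counts in the ESC library and 8013 in the RA library. In ESCs the only H3K27ac peak was chr19:37771823-37773796, with a score of 17.9, at the median of its library and at rank 49908 of 100469. In RA cells it lay inside a peak of 13176 bp, chr19:37766824-37779999, with a score of 968, at rank 183 of 102600. The other 8 RA peaks were small, the next ones being chr19:37749829-37752125 with a score of 47.5 and chr19:37792419-37794974 with 38.0. Within the large RA peak, whose choice favours high RA values, the ESC library held 527 counts and the RA library 7128, a 13.6-fold difference (12.5 to 14.9).

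The region was divided into 12 windows of 5 kb, numbered in genome order. Window 7, chr19:37770001-37775000, held 126 H3K27ac counts per 10M in ESCs and 1532 in RA cells, 12.2-fold more (11.03 to 13.5). Ranked by the difference per 10M, this was the largest increase among 499732 windows of 5 kb on the same grid over the genome. It kept that rank when the libraries were scaled by the median ratio of their bins. These ranks compare windows of different CpG content, and a window with more CpGs can reach a larger difference, so they are a description. Window 8, chr19:37775001-37780000, went from 37 counts in the ESC library to 1522 in the RA library, 41.5-fold higher on the scaled values (29.97 to 59.2) and at rank 84. Window 6, chr19:37765001-37770000, was 7.01-fold higher (5.70 to 8.70) and at rank 1718. In the other 9 windows the fold lay between 1.07 (0.642 to 1.79, window 10) and 4.58 (windows 3 and 11). In CpG counts the increase was thus concentrated in windows 6 to 8. Window 7 alone held 42.6% of the region's H3K27ac counts in ESCs and 61.7% in RA cells, shares that also depend on the CpGs of each window.

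**Figure D1:**
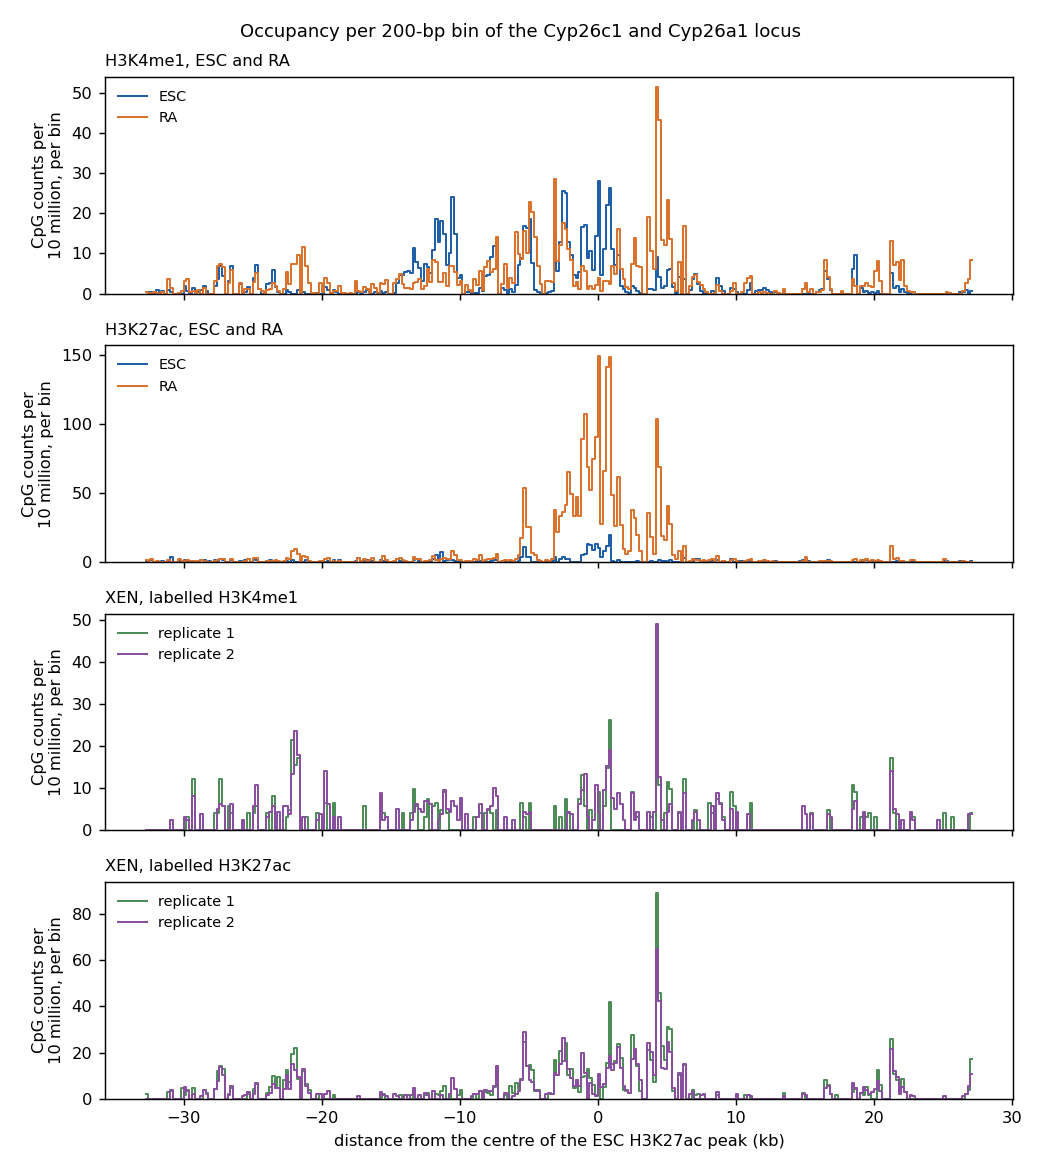
CpG counts per 10M of the library in each 200-bp bin (y axes, which differ between panels) against the distance in kb from the centre of the ESC H3K27ac peak, 1 line per library, with unlisted bins drawn at 0. H3K27ac of RA cells reaches 149 near the centre, where the H3K4me1 line of RA cells lies at 4.03 and that of ESCs at 28.1.

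The 3 fullest H3K27ac bins of RA cells lay within the ESC peak or across its edge, a stretch called the core below. At chr19:37772801-37773000 the ESC library held 34 counts and the RA library 482. At chr19:37773601-37773800, the fullest bin of the ESC library, the counts were 64 and 479, and at chr19:37773401-37773600 they were 38 and 456. Outside the core, chr19:37777001-37777200 held 335 counts in the RA library and was not listed in the ESC library. At chr19:37772001-37772200 and chr19:37772601-37772800, which completed the 3 fullest bins of ESCs with 42 counts each, the RA library held 223 and 292. Bins picked as the fullest of the RA library had to be high there, but the 3 fullest of the ESC library also held more counts in RA cells.

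Of the region's bins, 37 had a mean of at least 10 per 10M over both H3K27ac libraries, and all 37 were over 2-fold higher in RA cells, against 25.5% of 130648 bins over the genome. None was over 2-fold lower, against 20.1%. Bins that passed the minimum through the RA library alone had to differ. When bins were kept on the ESC library alone, a choice made after the data were seen, 7 of 7 were over 2-fold higher, against 5.97% over the genome, and their median log2 difference was 2.81 against -0.67.

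H3K4me1 was placed differently in the 2 states. Over the whole region it was 1.21-fold higher in RA cells (1.16 to 1.25), with 871 CpG counts per 10M in ESCs and 1050 in RA cells. In ESCs its strongest peaks were chr19:37758474-37763132 with a score of 84.9, chr19:37769403-37774948 with 82.9 and chr19:37776560-37780245 with 44.6. In RA cells they were chr19:37773656-37780560 with 215.5, chr19:37763429-37771562 with 154 and chr19:37791994-37795462 with 83.5. The strongest RA peak ranked 4861 of 158989 in its library and the strongest ESC peak 20898 of 145840.

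The first of these ESC peaks, on the Cyp26c1 side, held 209 H3K4me1 counts per 10M in ESCs and 81.6 in RA cells, a fold of 0.390 (0.347 to 0.438), and it was picked as the strongest ESC peak, which favours a fold below 1. Overlapping it, the RA list held 2 small peaks, with scores of 17.9 and 8.13. H3K27ac was low there in both states, at 29.5 per 10M in ESCs and 46.1 in RA cells, 1.57-fold higher (1.20 to 2.05). Its methylated counts were 6.60-fold higher (3.66 to 12.9) and its unmethylated ones 0.778-fold (0.552 to 1.09). Small RA H3K27ac peaks, with scores of 8.84 and 8.63, crossed its edges. This stretch therefore held less H3K4me1 and little H3K27ac while the core held far more H3K27ac.

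In the bins wholly within the ESC H3K27ac peak, whose choice used no H3K4me1 value, the H3K4me1 libraries held 623 counts in ESCs and 82 in RA cells, a fold of 0.164 on the scaled values (0.129 to 0.207). H3K27ac in the same bins went from 262 counts to 2165, 8.34-fold higher (7.33 to 9.51). The 2 marks thus differed in opposite directions over the same bases. Between the strongest 2 RA peaks of H3K4me1 lay a gap of 2093 bp, chr19:37771563-37773655, which covered most of that peak. Low H3K4me1 in RA cells is built into its choice, so its values are a description. The H3K4me1 libraries held 822 counts there in ESCs and 142 in RA cells, a fold of 0.215 on the scaled values (0.179 to 0.258). H3K27ac in the same gap went from 298 counts to 2799, 9.47-fold higher (8.41 to 10.7). At chr19:37772801-37773000, the fullest H3K4me1 bin of ESCs, the ESC library held 165 counts and the RA library 19. The second, chr19:37773601-37773800, had 154 and 11, and the next, chr19:37770201-37770400, had 150 and 83, all 3 being picked for their high ESC counts.

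H3K4me1 was higher in RA cells in window 8, on the side away from Cyp26c1. That window held 55.6 H3K4me1 counts per 10M in ESCs and 267 in RA cells, 4.80-fold more (4.25 to 5.44), the increase of rank 363 among 495962 windows over the genome. Window 7 went from 297 to 143 per 10M, a fold of 0.481 (0.440 to 0.526) and the decrease of rank 744, or 442 when scaled by the median ratio. These ranks, too, depend on the CpG content of the windows. The 2 fullest H3K4me1 bins of RA cells were neighbours in window 8. The first, chr19:37777001-37777200, held 54 counts in ESCs and 242 in RA cells, and chr19:37777201-37777400 held 25 and 204. The next, chr19:37769601-37769800, held 90 and 135. These bins were picked as the fullest of the RA library, so their lower ESC counts are a description.

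Of 25 bins with a mean of at least 10 per 10M over both H3K4me1 libraries, 6 were over 2-fold higher in RA cells, against 22.8% of 146525 bins over the genome, and 9 were over 2-fold lower, against 14.9%. All 6 higher bins were under 10 per 10M in the ESC library and all 9 lower bins were under 10 in the RA library, so each passed the minimum only through the library where it was high and had to differ. With bins kept on the ESC library alone, 0 of 28 were higher and 15 of 28 were lower, against 1.77% and 51.1% over the genome, a share of lower bins near the background. With the minimum on the mean, the median log2 difference was -0.20 in the region and 0.29 over the genome. The median ratio of RA to ESC over bins with at least 30 counts in both libraries was 0.25 on the log2 scale for H3K4me1 and 0.14 for H3K27ac. Scaling by it gave 4 higher and 10 lower H3K4me1 bins, and the log2 difference of the whole region, 0.27, was close to this shift.

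**Figure D2:**
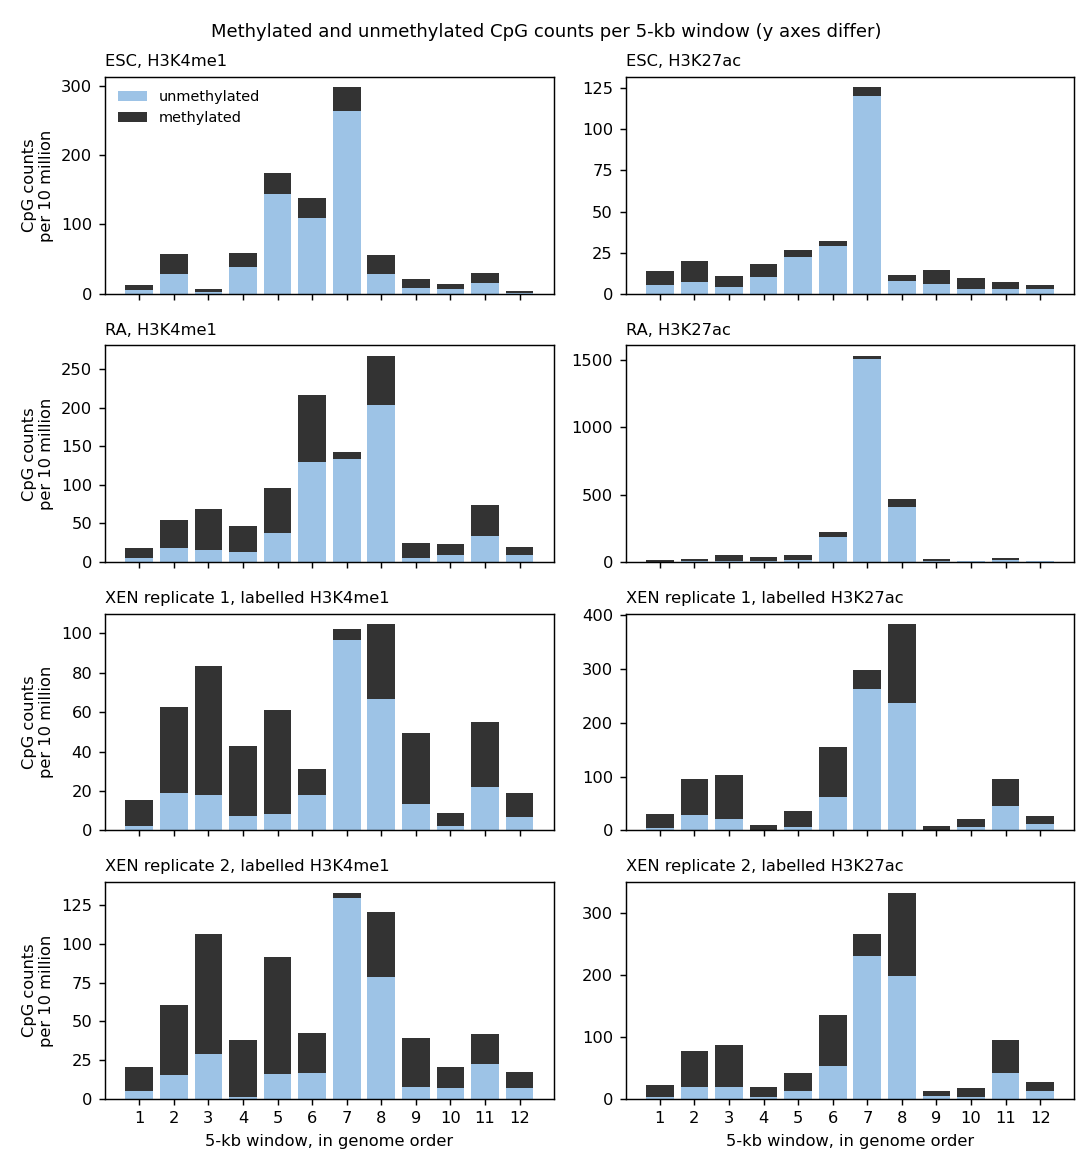
Methylated (dark) and unmethylated (light) CpG counts per 10M of the library (stacked bars, y axes differ) in the 12 windows of 5 kb, for each of the 8 libraries. Unmethylated H3K4me1 in window 5 stands at 143 in ESCs and 38.2 in RA cells, and methylated H3K4me1 there at 31.3 and 57.9.

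Pooled over the region, 5mC differed between ESCs and RA cells in opposite directions in the 2 marks, but not window by window. In H3K4me1 it was 25.5% in ESCs (24.3 to 26.7) and 41.6% in RA cells (40.2 to 42.9). In H3K27ac it was 25.3% (22.6 to 28.2) and 11.9% (11.2 to 12.7), and in the inner 40 kb 18.4% and 10.4%. Over all bins of the genome the 4 libraries stood at 38.6, 54.8, 33.0 and 38.7% in the same order. The composition of the counts differed between the marks: scaled methylated H3K4me1 counts were 1.97-fold higher in RA cells (1.84 to 2.11) and unmethylated ones 0.946-fold (0.901 to 0.993). For H3K27ac, methylated counts were 3.97-fold higher (3.45 to 4.59) and unmethylated ones 9.91-fold higher (9.18 to 10.7). The lower H3K27ac percentage therefore came with more methylated counts, not fewer, and with a larger share of counts in window 7. Within windows, H3K27ac 5mC was higher in RA cells in windows 1, 3 to 6 and 9, for example 43.1% and 76.5% in window 4, and lower in the others. Both marks differed in the same direction in windows 1, 3 to 9 and 12, and these values were not tested.

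Fisher's exact test compared the 2 H3K4me1 libraries per bin, in bins within a peak of either state and with at least 30 counts in both. Of 204685 bins tested over the genome, 27 lay in the region. Of these, 7 had higher 5mC in RA cells at an adjusted p under 0.05, against 47.8% over the genome, and 7 had lower 5mC, against 1.84%. A minimum of 20 counts gave 14 higher and 8 lower bins and a minimum of 60 gave 2 and 1, so the counts depended on it. At 30 counts the share of higher bins was below the background and that of lower bins above it. The median difference was -1.21 percentage points in the region and 17.4 over the genome. The called bins were sorted along the region: all 7 higher ones lay between 27.3 and 4.9 kb below the centre of the ESC H3K27ac peak, and all 7 lower ones between 2.9 kb below it and 5.1 kb above it. Neighbouring bins can share reads and are not independent.

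Of the higher bins, 4 lay within the ESC H3K4me1 peak on the Cyp26c1 side. At chr19:37760801-37761000, 5mC was 3.13% in ESCs (0.381 to 10.8, 64 counts) and 48.7% in RA cells (32.4 to 65.2, 39 counts), with an adjusted p of 4.4e-07 by Fisher's exact test. Its neighbour chr19:37761001-37761200 had 2.75% and 29.7%, and chr19:37762001-37762200 had 1.69% and 34.4%. Further out, chr19:37745401-37745600 stood at 24.4% and 62.9%, and chr19:37765401-37765600 at 5.71% and 28.8%. These were the 5 largest differences upward, from 23.1 to 45.6 points, and in the 3 on the Cyp26c1 side peak 5mC was at most 3.13% in ESCs and at least 29.7% in RA cells.

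Of the lower bins, the largest differences lay in window 8. At chr19:37777801-37778000, 5mC was 79.4% in ESCs (62.1 to 91.3, 34 counts) and 29.1% in RA cells (20.8 to 38.5, 110 counts). At chr19:37777001-37777200, the fullest H3K4me1 bin of RA cells, it was 55.6% (41.4 to 69.1, 54 counts) and 7.85% (4.79 to 11.99, 242 counts), with an adjusted p of 2.6e-12 by Fisher's exact test. On the other side of the gap, chr19:37769801-37770000 had 69.7% and 34.2%, and chr19:37770001-37770200 had 38.7% and 7.02%. The fifth, chr19:37774201-37774400, had 29.8% and 9.21%. These called bins lay on both sides of the gap, but the RA H3K4me1 peak on its lower side as a whole had more 5mC in RA cells, 21.8% in ESCs and 35.3% in RA cells.

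**Figure D3:**
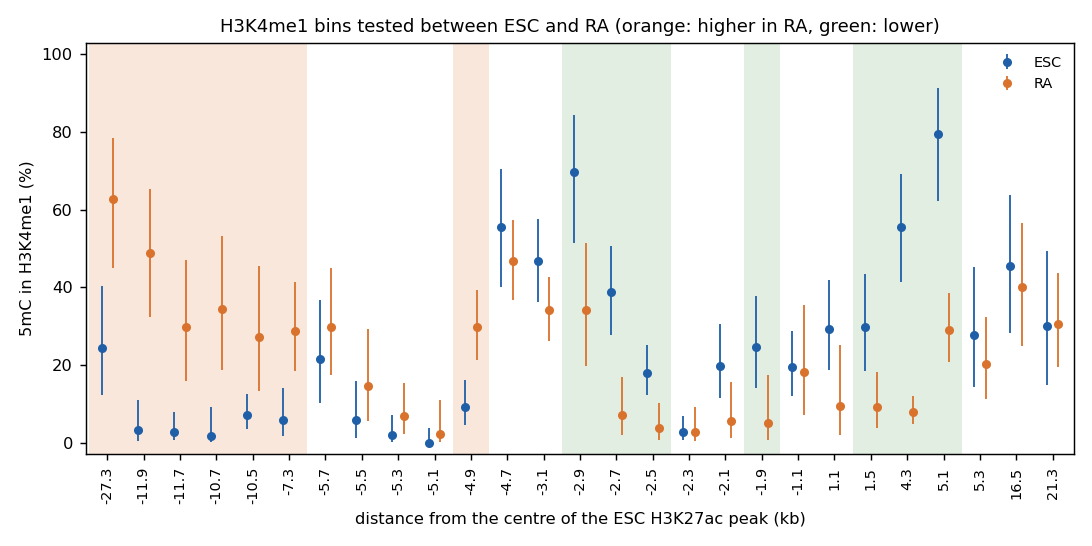
5mC (%) in the H3K4me1 libraries of ESCs and RA cells for the 27 tested bins, in genome order with the distance in kb from the centre of the ESC H3K27ac peak, points with exact 95% intervals of counting error. Shading marks the 14 called bins, with higher 5mC in RA cells to the left (7) and lower 5mC further right (7).

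At the scale of 5 kb the division was seen only in part. In H3K4me1, 5mC was lower in RA cells in windows 7, 8 and 12 and higher in all others, on both sides of the core. Window 6 stood at 21.3% in ESCs and 39.7% in RA cells, and window 9 at 60.8% and 80.7%. In window 5, chr19:37760001-37765000, 5mC in H3K4me1 was 17.9% (15.6 to 20.4) in ESCs and 60.3% (55.6 to 64.8) in RA cells, and in window 4 it was 36.1% and 72.7%. In window 8 it was 49.5% (44.0 to 55.1) and 23.9% (21.6 to 26.3). That difference of -25.7 points had rank 6 from the largest decrease among 28980 windows with at least 300 counts in both libraries (0.0207% had as large a decrease), while the median window differed by 16.6 points. The 42.3 points of window 5 were reached by 2.24% of windows. In window 7, 5mC was low in both states, 11.4% (9.93 to 12.97) and 6.52% (4.78 to 8.65).

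The composition differed between these windows too. In window 5 the scaled unmethylated H3K4me1 counts were 0.266-fold those of ESCs (0.226 to 0.313) and methylated ones 1.85-fold (1.53 to 2.24). In window 8, unmethylated counts were 7.24-fold higher (6.14 to 8.60) and methylated ones 2.32-fold higher (1.91 to 2.82). Window 5 thus held less unmethylated and more methylated DNA under H3K4me1, and window 8 more of both.

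In H3K27ac, 7 of 81132 bins tested lay in the region, 6 of them in the core. None had higher 5mC in RA cells, against 13.8% over the genome, and none lower, against 1.06%. At an unadjusted p under 0.05 by Fisher's exact test there were 0 higher and 1 lower, chr19:37773601-37773800, with 6.25% in ESCs (1.73 to 15.2, 64 counts) and 1.67% in RA cells (0.724 to 3.26, 479 counts). The 7 bins ranged from 0 to 6.25% in ESCs and from 0.342 to 4.07% in RA cells. No other bin of the region within an H3K27ac peak reached 30 counts in both libraries. In window 5, H3K27ac held 87 counts with 16.1% 5mC in ESCs (9.09 to 25.5) and 158 counts with 61.4% in RA cells (53.3 to 69.0), close to the H3K4me1 values of the same window.

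Between the marks, 5mC was compared in bins within peaks of both. In ESCs, 6 of 92470 such bins lay in the region, all in the core. None was higher in H3K4me1, against 0.0692% over the genome, and none lower, against 0.00973%, and none passed an unadjusted p of 0.05 by Fisher's exact test. In RA cells, 27 of 95406 bins lay in the region. Again none was higher in H3K4me1 after adjustment, against 0.801%, and none lower, against 0.0126%. At an unadjusted p under 0.05, 7 were higher and none lower, for which no share over the genome was computed. The percentage was higher in H3K4me1 in 21 of 27 bins, against 66.1% of bins over the genome. The median difference was 4.11 points against 3.07 over the genome. The largest was chr19:37769801-37770000, with 34.2% in H3K4me1 (19.6 to 51.4, 38 counts) and 12.7% in H3K27ac (5.96 to 22.7, 71 counts), an adjusted p of 0.253 by Fisher's exact test. None of the differences, up to 21.5 points, was detectable after adjustment at this depth.

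In XEN cells windows 7 and 8 were the fullest windows of all 4 libraries. In those labelled H3K27ac, window 8 held 383 and 333 CpG counts per 10M and window 7 held 299 and 266, against 471 and 1532 in RA H3K27ac and 267 and 143 in RA H3K4me1. In the libraries labelled H3K4me1, window 8 held 105 and 120 and window 7 held 102 and 133. The fullest bin of all 4 XEN libraries was chr19:37777001-37777200, with 33 and 77 counts in those labelled H3K4me1 and 203 and 203 in those labelled H3K27ac. It was also the fullest H3K4me1 bin of RA cells. The next 2 bins were chr19:37773601-37773800 and chr19:37750601-37750800 in the first library labelled H3K4me1 (32 and 26 counts). In the second they were chr19:37750801-37751000 and chr19:37773601-37773800 (37 and 30 counts). In the libraries labelled H3K27ac the second was chr19:37777201-37777400 (104 and 132 counts), and the next was chr19:37773601-37773800 with 95 counts in one and chr19:37767401-37767600 with 90 in the other. In the bins wholly within the ESC H3K27ac peak the 4 XEN libraries held from 34.6 to 58.0 counts per 10M, against 670 in RA H3K27ac.

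Occupancy was compared between the XEN libraries with edgeR's quasi-likelihood test. Of 352794 bins tested, 45 lay in the region. In the libraries labelled H3K4me1, 1 bin was higher at an adjusted p under 0.05, against 13.6% over the genome, and 8 were lower, against 7.59%. At an unadjusted p under 0.05 there were 1 and 16. The higher one, named after its value was seen, was chr19:37751001-37751200, with 21 and 28 counts in the libraries labelled H3K4me1 and 19 and 30 in those labelled H3K27ac, which were the larger libraries. Among the lower ones was chr19:37770201-37770400, not listed in either library labelled H3K4me1 and with 37 and 83 counts in those labelled H3K27ac. These counts depended on the processing: library totals in place of TMM gave 0 higher and 18 lower bins, the replicate number as a block 0 and 1, and no filter 0 and 0. Without the first library labelled H3K27ac 0 bins were higher and 1 was lower, and without the second none was called. If the file names are right, each direction turns round.

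5mC of the region was 55.8% and 54.3% in the XEN libraries labelled H3K4me1 (mean 55.1% ± 1.05, SD, n = 2) and 45.5% and 47.0% in those labelled H3K27ac (46.3% ± 1.05, SD, n = 2). Over all bins of the genome the order was the other way, with 47.9% and 49.2% in the libraries labelled H3K4me1 and 61.5% in each of those labelled H3K27ac. The difference of 8.84 points in the region was larger than the spread within each pair, but an exact two-sided permutation test of 2 against 2 cannot go below p = 0.333, which it gave. In the 14 bins with at least 10 counts in each of the 4 libraries the difference was -0.301 points, so it did not hold where the same bins were compared. By edgeR's quasi-likelihood test on those 14 of 144770 bins none had higher 5mC in the libraries labelled H3K4me1, against 0.00207% over the genome, and none lower, against 0.141%. At an unadjusted p under 0.05 there were 0 higher and 1 lower.

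In the ESC H3K4me1 peak on the Cyp26c1 side, 5mC was higher in XEN and RA cells than in ESCs. It was 88.6% and 86.8% in the XEN libraries labelled H3K4me1 and 78.6% and 74.3% in those labelled H3K27ac. The values in ESCs were 17.8% in H3K4me1 (15.7 to 20.1) and 13.5% in H3K27ac (7.41 to 22.0), and in RA cells 51.4% (46.3 to 56.5) and 57.05% (48.7 to 65.1). No interval of the 4 XEN libraries reached those of ESCs, whose upper bounds were 20.1% and 22.0%, while their lowest bound was 64.8%. In the bins wholly within the ESC H3K27ac peak little 5mC was read in all 8 libraries, with values from 0 (of 42 counts, exact interval up to 8.41%) to 1.77%.

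In window 8, where H3K4me1 of RA cells had less 5mC than that of ESCs, XEN values lay between the 2: 36.2% (27.9 to 45.2) and 34.9% (28.1 to 42.2) in the libraries labelled H3K4me1, and 38.4% (35.2 to 41.7) and 40.5% (37.5 to 43.5) in those labelled H3K27ac. The ESC interval in H3K4me1, 44.0 to 55.1%, overlapped 1 of these 4. Against H3K27ac, all 4 values lay above both states, which stood at 32.4% in ESCs (18.0 to 49.8, 37 counts) and 12.9% in RA cells (11.2 to 14.7). The fullest bin, chr19:37777001-37777200, had 18.2% and 12.99% in the libraries labelled H3K4me1 and 13.8% and 21.2% in those labelled H3K27ac, against 7.85% in H3K4me1 and 5.67% in H3K27ac of RA cells and 55.6% in H3K4me1 of ESCs. Its 5mC was thus low in each of the differentiated libraries.

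**Figure D4:**
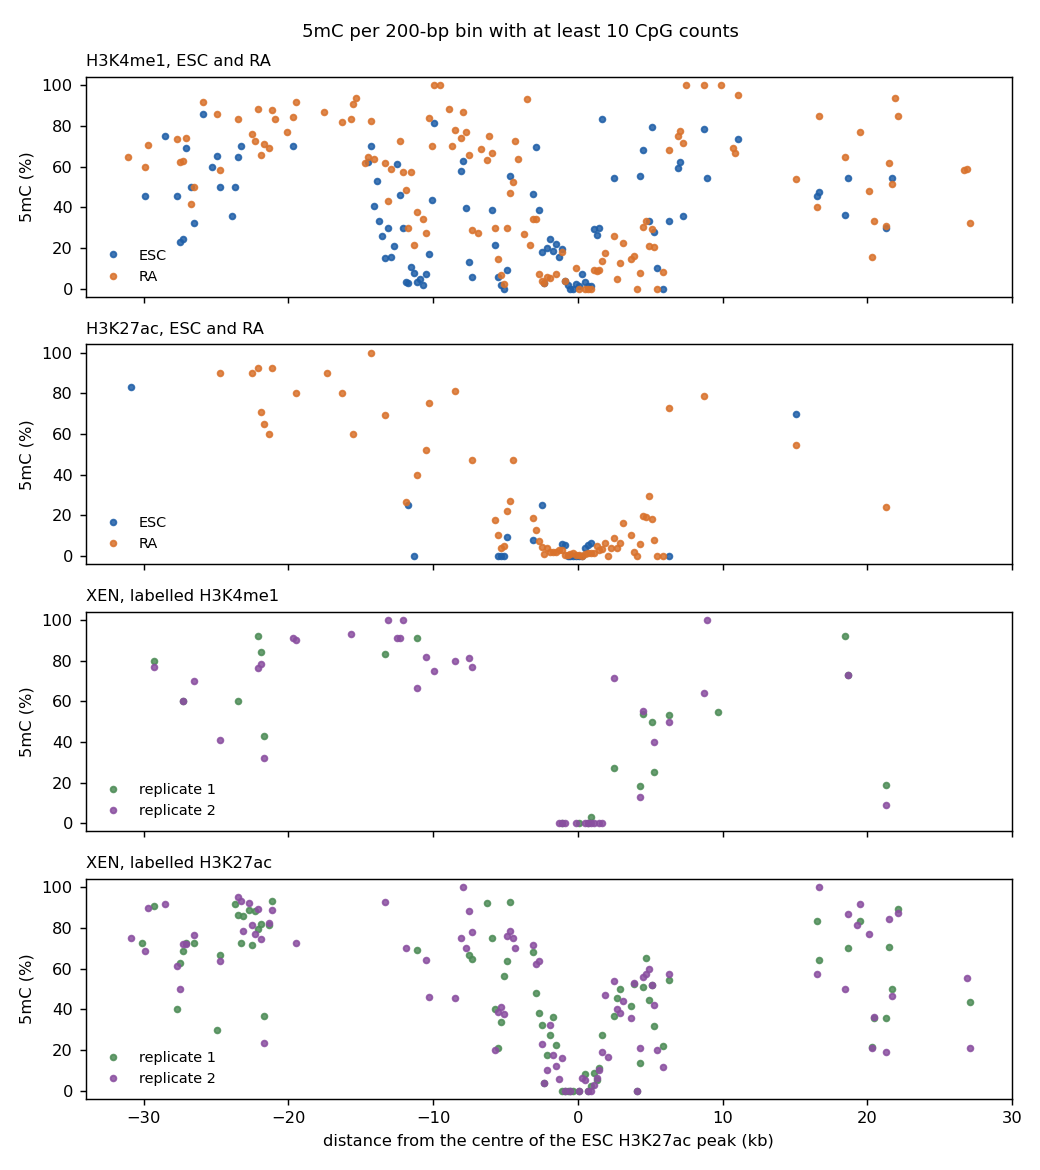
5mC (%) of each 200-bp bin with at least 10 CpG counts against the distance in kb from the centre of the ESC H3K27ac peak, 1 colour per library. All libraries fall to near 0 at the centre, and to its left the ESC points of H3K4me1 form a second low stretch (1.69 to 7.04% in the 4 called bins of that peak) where the RA and XEN points lie higher.

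At both ends of the region were elements that few ESC counts covered, picked here as RA H3K27ac peaks, which favours high RA values. At chr19:37749829-37752125, in window 3, H3K4me1 had 16 counts in ESCs and 256 in RA cells, 19.9-fold higher on the scaled values (12.05 to 35.4), and H3K27ac had 16 and 127, 8.01-fold higher (4.74 to 14.4). 5mC there was 75.4% in H3K4me1 of RA cells (69.6 to 80.5) and 79.5% in H3K27ac (71.5 to 86.2). In XEN cells it was 76.2% and 67.8% in the libraries labelled H3K4me1 and 78.9% and 75.8% in those labelled H3K27ac, with 65.9, 73.3, 99.8 and 76.6 counts per 10M. The counts of this element thus came mostly from methylated DNA in the libraries of both marks. They were not compared with DNA that had not been immunoprecipitated, and bulk counts do not show both marks in the same cells. At chr19:37792419-37794974, in window 11, H3K4me1 had 61 and 237 counts (4.84-fold, 3.64 to 6.53) and H3K27ac 11 and 73 (6.69-fold, 3.53 to 14.0), with 43.5% and 35.6% 5mC in RA cells. Its XEN values were 33.3% and 27.8% in the libraries labelled H3K4me1 and 43.4% and 46.5% in those labelled H3K27ac.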

How the data were processed

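ChIP-BS-seq of H3K4me1 and H3K27ac was analysed in 8 libraries. The region, lists and bins were chosen with earlier results of these data known. Per the labels and the submitters' processing notes, the authors aligned reads to mm9 (Bismark, Bowtie and Bowtie2 are named, versions not given in the sources used here), called peaks with HOMER and used bedtools to place CpGs in bins. The deposited bin files hold, for each stretch of 200 bp, raw counts of CpG calls in either state. The column that is rare on mitochondrial DNA was taken as methylated, and its place differs between the XEN files and the others. XEN files list only bins of at least 4 counts. The deposited peak files hold a score per peak, used here for ranks only. The authors' single-cell tables of expected counts were not used, as their transcript identifiers were not paired with gene names here, and 6 samples were not analysed here.

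5mC is methylated over all CpG counts, with exact (Clopper-Pearson) 95% intervals. Occupancy was scaled to the library total. Levels over a peak or window use the bins wholly within it. Fisher's exact test (two-sided) was computed by custom code with numba 0.67.0, checked against scipy 1.17.1 on simulated bins. It was run on all bins of the genome with at least 30 counts in both libraries and overlapping a peak by 1 bp or more. Benjamini-Hochberg adjustment was made over all of them. XEN occupancy (bins of at least 60 summed counts, TMM) and 5mC (at least 10 counts in each library) were tested with edgeR 4.0.16 in R 4.3.3, with DESeq2 1.42.0 as an alternative for occupancy. No source used here says that the paired XEN libraries came from separate cultures, so p-values measure only the spread between them. Single bins are named by rule: the 5 largest differences in each direction among called bins, and the 3 fullest bins of each library. Other bins were named after their values were seen. Libraries held 12147115 to 58803653 CpG counts, and arithmetic used pandas 2.3.3 and numpy 2.4.6.

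The tests were tried on simulated data with 200 changed bins. For H3K4me1 142 were recovered among 205241 bins and for H3K27ac 190 among 81592. For XEN occupancy (8-fold changes) 199 were recovered among 352794, and for XEN 5mC 162 among 144770. Unchanged bins that were called numbered 2, 2, 13 and 7 in the same order. The 5mC simulations used large changes and independent CpG counts, without CpGs sharing a read or PCR copies. Recovery in the real libraries can therefore be lower. Alternatives were other count minimums, scalings, folds, region limits, tools, the replicate number as a block, and leaving out each XEN library.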

Additional observations from a re-analysis of the deposited data

Results flagged for a closer look

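Pooled over the whole region, 5mC differed from that of ESC H3K27ac in opposite directions in the 2 kinds of differentiated cells. It was 13.3 percentage points lower in the RA H3K27ac library (a difference of -13.3), and it was 20.2 and 21.7 points higher in the 2 XEN libraries labelled H3K27ac. Over all bins of the genome, 5mC was 33.0% in ESC H3K27ac, 38.7% in RA H3K27ac and 61.5% in each XEN library labelled H3K27ac, from files with different lowest counts per bin. With the marks as the file names give them, the XEN libraries were 30.5 and 29.1 points higher. The share of H3K27ac counts in window 7 was 42.6% in ESCs and 61.7% in RA cells, and its part in the pooled difference was not tested. In the inner 40 kb, ESC and RA H3K27ac stood at 18.4% and 10.4%, a smaller difference. In windows 3, 4 and 5 RA H3K27ac stood at 78.6, 76.5 and 61.4% 5mC, above the 62.9, 43.1 and 16.1% of ESCs and in the same direction as the XEN libraries labelled H3K27ac. In windows 7 and 8 the directions were opposite: window 7 stood at 3.91% in ESCs, 1.72% in RA cells and 11.9 and 13.4% in these XEN libraries, and window 8 at 32.4, 12.9, 38.4 and 40.5%. Windows 2, 10 and 12 also had lower values in RA cells and higher ones in these XEN libraries than in ESCs, windows 1, 6 and 9 had higher values in both, and window 11 had lower values in both. With the marks as the file names give them, the opposite direction did not hold in both XEN libraries in window 7 (5.65 and 2.87%) or window 10 (72.7 and 65.6%, against 68.8% in ESCs). The difference between the 2 effects was not tested, and both use the same single ESC library. XEN files list only bins of at least 4 counts, and with that minimum, chosen after the data were seen, ESC H3K27ac stood at 18.2% and RA H3K27ac at 10.7%. The part of growth conditions, retinoic acid dose and days of culture in this difference cannot be told apart.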

How the results depend on the processing

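Of 106 alternatives over 21 results, 79 kept the direction and side of the threshold or stayed within 1.5 times the count (most of them counts of 0 that stayed at 0, which says little about stability), 25 moved and 2 turned round. Where a change is given below, the cause was not tested unless fewer bins or libraries entered by construction. The main limits are 1 library per mark in ESCs and RA cells, low H3K27ac counts of ESCs outside the core, and the conflict between XEN labels and file names.

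For 5mC in H3K4me1 between ESCs and RA cells, a minimum of 20 counts gave 14 higher bins, and a minimum of 60 gave 2 higher and 1 lower. For H3K4me1 occupancy, a mean of at least 5 gave 16 higher and 17 lower bins, a mean of at least 20 gave 2 and 0, and keeping bins on the ESC library alone (chosen after seeing the data) gave 0 and 15 of 28, against 1.77% and 51.1% over the genome. For H3K27ac occupancy a mean of at least 20 gave 21 higher bins, and the ESC library alone gave 7.

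XEN occupancy calls depended most on the processing. Library totals in place of TMM gave 0 higher and 18 lower bins, no filter gave 0 and 0, and leaving out 1 library gave 0 to 2 higher and 0 to 15 lower, the lone library being assumed to vary like the other group. With the replicate number as a block there were 0 higher and 1 lower. XEN libraries share only a number: deviations of same-numbered libraries had a correlation of -0.00617 over 352794 bins. The block left XEN 5mC calls at 0, and the region's 5mC difference was 8.84 points with it (p = 0.5, exact permutation within numbers). That difference was -0.301 points over bins with at least 10 counts in each library (exact permutation p = 1.0), -8.84 with the marks as in the file names, and 8.09 to 9.58 when 1 library was left out. With bins of at least 4 counts (chosen after seeing the data) 5mC of the region was 18.2% in ESC H3K27ac and 10.7% in RA H3K27ac.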
